A study of Homo sapiens with 24 samples.

Results

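The genes described here build ribosomes: 48 genes for RNA polymerase I and its factors and for nucleolar proteins that process ribosomal RNA and assemble the 40S and 60S subunits. They were taken by gene symbol from the 23368 genes of the count table, and all 48 were expressed well enough to be tested, the lowest count of any of them in any library being 87, for PPAN. The cells were AGS, an established human gastric adenocarcinoma line with epithelial features, harvested 24 h after kinase inhibitors were added. RNA sequencing was done on 24 libraries in 6 groups of 4 biological replicates.

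The control group received no inhibitor, and the labels do not say whether it received vehicle. PI103, an inhibitor of PI3 kinase and mTOR, was used at 0.7 µM, PD0325901, an inhibitor of the kinase MEK, at 0.035 µM, and (5Z)-7-oxozeaenol, an inhibitor of the kinase TAK1 that is called oxozeaenol here, at 0.5 µM. The combination groups paired PI103 with oxozeaenol and PI103 with PD0325901, with both agents of a pair brought to 50% of the concentrations just given. All groups are the same line, given as wild type, so nothing here speaks to other cells, and 1 concentration and 1 time point were measured for each treatment. All 5 treatments were compared with the same 4 control libraries, so their differences from control are not independent of one another.

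As background, ribosomal RNA is transcribed from the ribosomal DNA repeats in the nucleolus by RNA polymerase I, which is recruited by UBTF, by the SL1 factors (the TAF1 proteins) and by RRN3. Box C/D and box H/ACA small nucleolar ribonucleoproteins (snoRNPs) then methylate and pseudouridylate the transcript, the small-subunit processome folds and cuts it, and separate sets of factors finish the 40S and the 60S subunits. mTOR and the ERK pathway below MEK are textbook inputs to this process, and the transcription factor MYC is known to act on many of its genes.

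Libraries held 38057638 to 84226380 counts in genes. The 48 genes together took 0.926% to 0.992% of gene counts in control and 0.399% to 0.545% with PI103 and PD0325901. The epithelial genes EPCAM, KRT8, KRT18 and KRT19 were high in every group, with means from 451 CPM upward. The blood and endothelial markers PTPRC and PECAM1 stayed at or under 0.182 CPM, and the fibroblast markers COL1A2 and DCN at or under 0.0176 CPM. The fibroblast marker COL1A1 alone was present, with group means of 8.69 to 33.0 CPM, highest with PI103, and its part in the results was not tested. Levels are CPM, counts scaled to a common library size after TMM scaling. They are relative to the other genes of a library, so a change in RNA per cell that all genes share would not show. In a bulk sample, fewer cells expressing a gene and less of its RNA per cell cannot be told apart. CPM are not corrected for gene length, so levels are compared within a gene only. A gene is called lower or higher at an adjusted p under 0.05 in edgeR's quasi-likelihood F test (two-sided, Benjamini-Hochberg over 13947 genes). Every adjusted p of a gene comes from that test on all 24 libraries unless an alternative is named. With a replicate block or a library left out, it comes from the same test in a new fit, adjusted over the genes tested there. Differences are on the log2 scale, treatment minus reference, with standard errors (SE), and values listed for a group follow replicates 1 to 4.

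Most of these genes were lower in every treatment, so their promoters are shown first. Of the 48 genes, 39 have an entry among the RefSeq promoters of GRCh38.p14, each running from 250 bases before to 50 bases after the gene's start in RefSeq (300 bases). RefSeq's start is that of 1 transcript, and in 32 of the 39 it lies inside the gene as GENCODE 29 draws it from its outermost transcript end, by up to 103125 bases for WDR12. The 50 bases after the start were found in full in a GENCODE transcript of the same gene and strand for 30 of the 39. The counts below therefore describe RefSeq's windows only. Those without an entry are POLR1E, NOP58, NOLC1, MPHOSPH10, RRP12, BOP1, RRP1B, RRS1 and DDX18. The E-box CACGTG, the letters that MYC and related factors are known to bind, was in 14 of the 39 promoters (35.9%), against 7.43% of all 27305 promoters and 9.83% of the 9472 promoters of genes tested here. The letters CCGGAAG, a core of ETS factor sites, were also in 14 of 39 (35.9%), against 10.7% of all promoters and 18.7% of those of tested genes. The palindromic NRF1 motif was in 3 of 39 (7.69% against 1.36% and 2.24%). Both strands were searched for exact letters and a match is a description of the letters only. Either the E-box or the ETS letters were in 24 of the 39 promoters, both were in 4 (FBL, NOP10, RRP9 and LTV1), and 15 had neither. NOP10 and IMP4 each had 2 E-boxes (5.13% of the 39 against 0.696% of all promoters).

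The following windows show the 80 bases before the RefSeq start of 6 genes, 5′ to 3′ on the strand of the gene in GRCh38.p14, with E-box and ETS letters in capitals. UTP20 (chr12:101280025-101280104, plus strand) and NAT10 (chr11:34105549-34105628, plus strand) carry an E-box close to that start and fell in all treatments. NOP10 (chr15:34343137-34343216, minus strand) carries both motifs and overlapped control in all treatments but one. DDX21 (chr10:68956090-68956169, plus strand) and GAR1 (chr4:109815430-109815509, plus strand) carry the ETS letters. UBTF (chr17:44220883-44220962, minus strand), the member that was higher with PI103, had neither motif in its 300 bases. Of the 15 promoters with neither motif, that of UBTF was the only one whose gene was not lower with PI103 and PD0325901. PPAN, UTP15 and DDX10, which also have neither, fell in all treatments. The 6 windows are examples, and whether the motifs go with the response was not tested. Against the GENCODE 29 gene ends, all 80 bases of the UBTF window lie inside the gene, as do the last 27 of NAT10, 41 of NOP10 and 42 of DDX21, while those of UTP20 and GAR1 lie before it.
UTP20: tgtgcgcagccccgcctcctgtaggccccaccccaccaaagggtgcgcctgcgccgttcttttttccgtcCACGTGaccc
NAT10: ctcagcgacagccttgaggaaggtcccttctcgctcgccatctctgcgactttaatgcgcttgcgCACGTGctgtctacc
NOP10: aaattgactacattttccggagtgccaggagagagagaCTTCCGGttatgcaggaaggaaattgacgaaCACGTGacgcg
DDX21: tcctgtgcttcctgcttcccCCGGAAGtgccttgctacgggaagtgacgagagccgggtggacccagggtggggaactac
GAR1: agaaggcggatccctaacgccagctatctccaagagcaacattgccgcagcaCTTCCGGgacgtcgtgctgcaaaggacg
UBTF: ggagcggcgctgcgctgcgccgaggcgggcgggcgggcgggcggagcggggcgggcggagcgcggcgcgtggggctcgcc
Counted from the RefSeq start, the E-box of UTP20 begins 10 bases before it, that of NAT10 15 bases before and the nearer one of NOP10 11 bases before. The ETS letters begin 60 bases before the RefSeq start of DDX21 and 28 bases before that of GAR1.

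Every treatment lowered most of the 48 genes. With PI103, 41 were lower, 1 was higher and 6 were not called, where 51.4% of all tested genes were called, 25.2% lower and 26.2% higher. With PD0325901, 46 were lower and none higher, where 58.6% of all tested genes were called, 29.9% lower and 28.7% higher. Oxozeaenol lowered 39 and raised none, where 51.9% were called, 26.1% lower and 25.7% higher. PI103 with oxozeaenol lowered 43 and raised 1, where 55.6% were called, 27.9% lower and 27.7% higher. PI103 with PD0325901 lowered 47 and raised 1, where 64.8% were called, 32.6% lower and 32.2% higher. The median log2 differences of the members were -0.61, -0.92, -0.51, -0.72 and -1.17 in that order, while the medians of all tested genes lay between -0.024 and 0.022. Called lower in all 5 treatments were 35 members, against 13.5% of all tested genes. The count of 35 ranged from 30 to 37 when each library was left out in turn, and the share of all tested genes from 12.1% to 13.6%.

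Every library of the treatment lay below every control library for 41, 44, 36, 42 and 47 members in the same order of treatments, against 24%, 24.9%, 22%, 26.8% and 28.9% of all tested genes. A called change of at least 0.5 was found for 34, 43, 25, 36 and 46 members, against 30.1%, 36.9%, 30.1%, 33.5% and 44.1% of all tested genes. FBL, NHP2 and NOP10 were called lower in only 2 treatments, PD0325901 and its combination, BRIX1 in 3 and 8 others in 4. PI103 with PD0325901 gave the lowest group mean for 46 members, the exceptions being TAF1D, lowest with PD0325901, and UBTF, lowest with oxozeaenol.

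**Figure D1:**
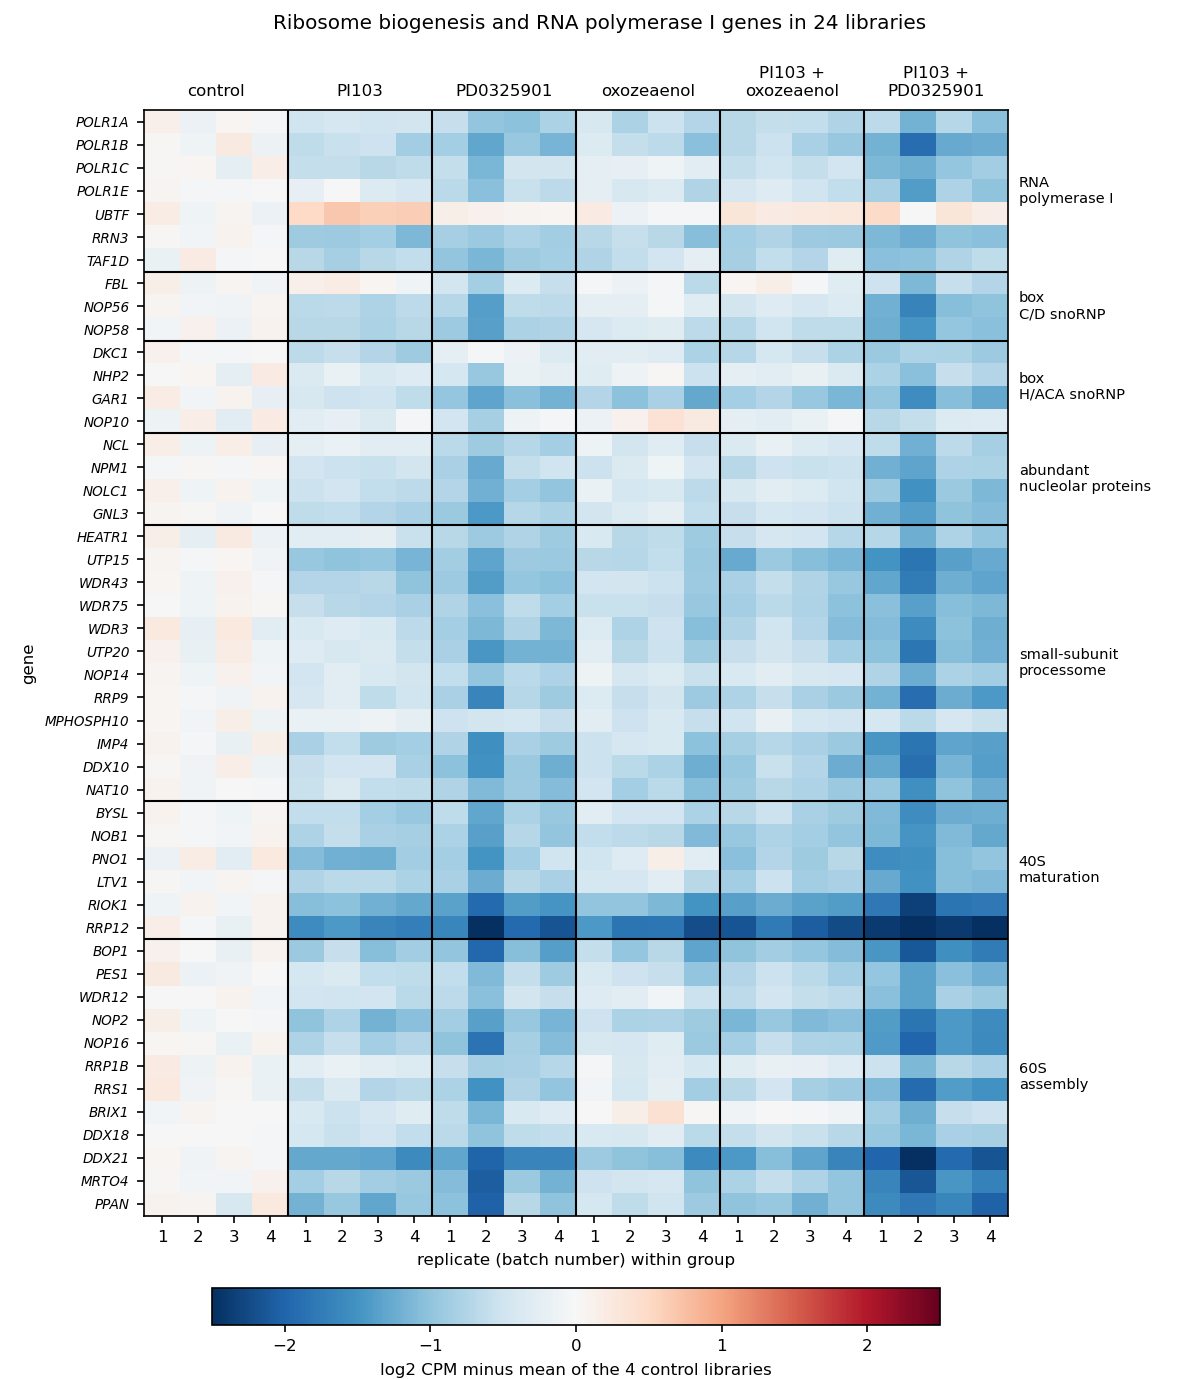
Heat map of log2 CPM minus the mean of the 4 control libraries for the 48 genes (rows, by role) in the 24 libraries (columns, by group and replicate). Blue is lower than control and colours stop at the ends of the scale. The PI103 with PD0325901 columns are the bluest, with the lowest group mean for 46 of the 48 genes, and the UBTF row is the reddest with PI103.

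The mean over the 48 genes, as log2 CPM minus the control mean, was 0 ± 0.046 in control (SD, n = 4). The single agents brought it to -0.62 ± 0.069 (PI103), -0.91 ± 0.23 (PD0325901) and -0.54 ± 0.18 (oxozeaenol), and the combinations of PI103 to -0.68 ± 0.097 (oxozeaenol) and -1.20 ± 0.21 (PD0325901; SD, n = 4 each). The control libraries lay between -0.044 and 0.065 and every treated library lay below them. Within groups, some libraries stood apart: PD0325901 replicate 2 was at -1.25 and the lowest of its group for 44 genes, and PI103 with PD0325901 replicate 2 was at -1.51 and lowest for 43. Oxozeaenol replicate 4 was at -0.80 and lowest for 41 genes, and PI103 with oxozeaenol replicate 2 was highest of its group for 42. Without the 2 low replicate 2 libraries, a choice made after seeing the data, PD0325901 lowered 45 members (median -0.81). PI103 with PD0325901 then lowered 47 and raised 1 (median -1.09). In that fit 40 members were lower in all 5 treatments, against 14.2% of all tested genes.

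**Figure D2:**
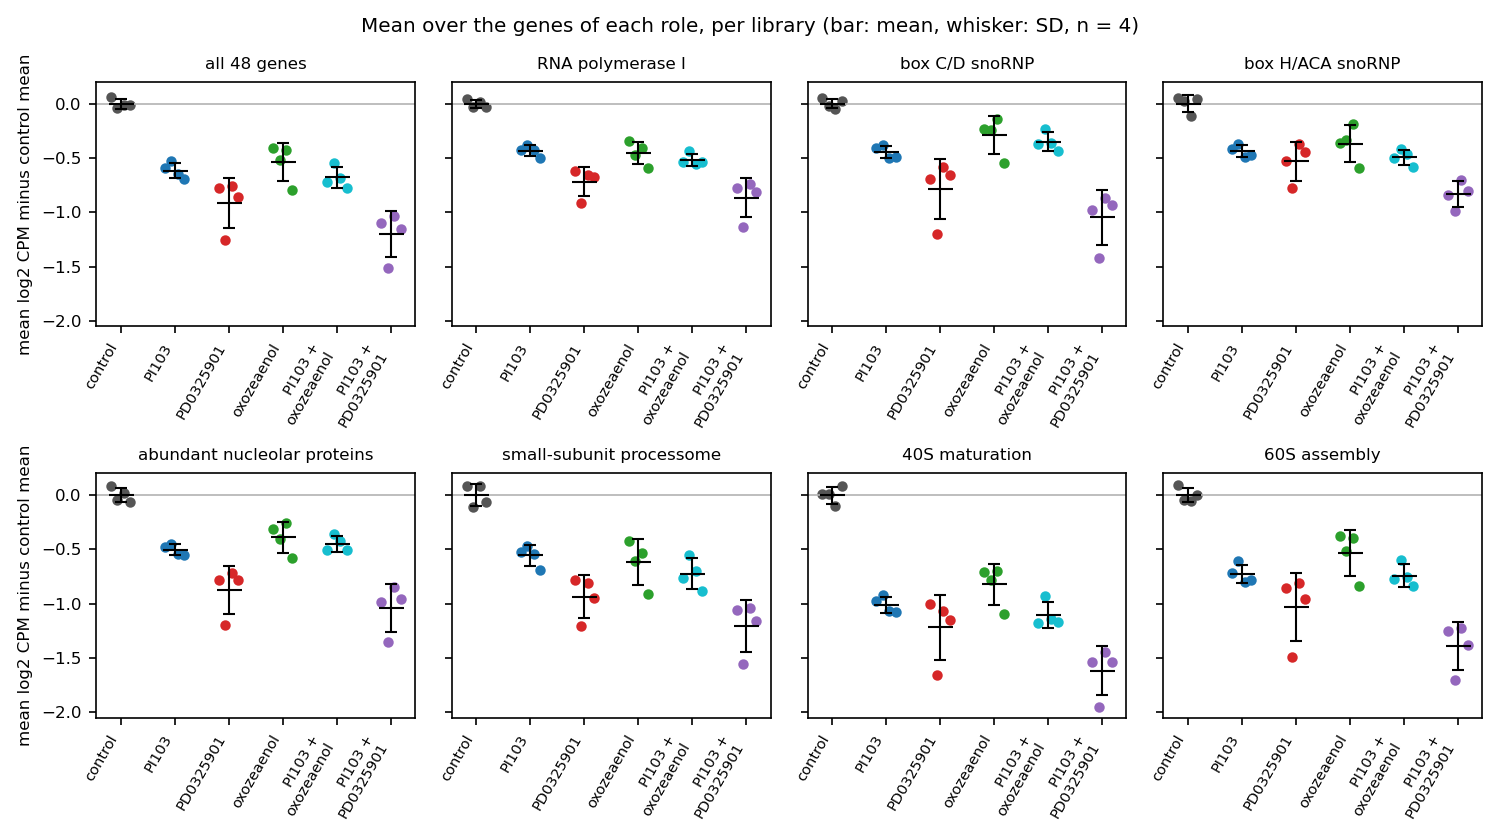
Mean log2 CPM minus the control mean over all 48 genes and over the genes of each of 7 roles, 1 point per library, with the mean and SD of each group (n = 4). The mean of the 40S maturation genes, which include RRP12, lies lowest in every treatment. The replicate 2 libraries of PD0325901 and of PI103 with PD0325901 lie under the rest of their groups.

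Most genes of RNA polymerase I and its factors fell, and UBTF did not. Of the 7 genes, 5 were lower and 1 higher with PI103, 6 were lower with PD0325901, 5 with oxozeaenol, and 6 were lower and 1 higher with either combination. Of all tested genes, 25.2% (PI103) to 32.6% (PI103 with PD0325901) were lower in the 5 treatments. POLR1A and POLR1B form the catalytic core, POLR1C is shared with RNA polymerase III, and POLR1E belongs to the subunit pair that helps initiation. POLR1B, the second-largest subunit, was counted at 69.7, 64.2, 80.5 and 62.0 CPM in the control libraries, 44.2, 46.5, 48.2 and 37.6 with PI103 and 38.1, 27.8, 35.6 and 30.9 with PD0325901. POLR1B levels were 54.2, 45.6, 43.8 and 33.4 CPM with oxozeaenol, 42.6, 47.6, 38.9 and 35.5 with PI103 and oxozeaenol, and 30.1, 18.4, 28.8 and 29.2 with PI103 and PD0325901. All treated libraries were below all control libraries, and the combination with PD0325901 was below PI103 as well. The differences from control were -0.65 ± 0.15 (SE, adjusted p = 0.000608) with PI103, -1.06 ± 0.15 (SE, adjusted p = 1.02e-06) with PD0325901 and -1.37 ± 0.15 (SE, adjusted p = 1.44e-08) with both agents. POLR1A differed by -0.47, -0.83, -0.61, -0.67 and -0.88 in the single agents PI103, PD0325901 and oxozeaenol and then the oxozeaenol and PD0325901 combinations, and was called in each. Every series of 5 values below keeps that order. POLR1C was not called with oxozeaenol (-0.21, adjusted p = 0.119), nor POLR1E with PI103 (-0.23, adjusted p = 0.117).

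UBTF, which binds along the ribosomal DNA and opens it for transcription, was the only member called higher in any treatment against control. UBTF, on chromosome 17 (chr17:44205033-44221626, GRCh38, GENCODE 29), was counted at 72.7, 59.2, 66.7 and 57.8 CPM in the control libraries, 89.9, 102, 96.7 and 97.7 with PI103 and 70.7, 68.9, 67.1 and 66.4 with PD0325901. UBTF levels were 73.4, 58.0, 62.2 and 61.4 CPM with oxozeaenol, 78.6, 74.0, 75.5 and 76.6 with PI103 and oxozeaenol, and 89.5, 63.1, 78.6 and 71.6 with PI103 and PD0325901. With PI103, alone or with oxozeaenol, every library was above every control library, while the PD0325901 and oxozeaenol libraries overlapped control. The difference was 0.59 ± 0.093 (SE, adjusted p = 8.21e-06) with PI103, 0.09 ± 0.093 (SE, adjusted p = 0.42) with PD0325901 and -0.01 ± 0.093 (SE, adjusted p = 0.945) with oxozeaenol. In the combinations it was 0.25 ± 0.093 (SE, adjusted p = 0.0249) with oxozeaenol and 0.24 ± 0.093 (SE, adjusted p = 0.0257) with PD0325901. The last of these lost its call in 6 of the alternatives run, among them leaving out control replicate 2 (0.20, adjusted p = 0.0905), control replicate 4 (0.19, adjusted p = 0.0988), combination replicate 1 (0.15, adjusted p = 0.169) or combination replicate 3 (0.22, adjusted p = 0.0632). The rise with PI103 and oxozeaenol lost its call in 4, among them leaving out control replicate 2 (0.21, adjusted p = 0.0827), control replicate 4 (0.20, adjusted p = 0.0935) or combination replicate 1 (0.23, adjusted p = 0.0579). UBTF was higher with PI103 than with PD0325901 or oxozeaenol, by the tests of those differences (-0.50 ± 0.093, SE, adjusted p = 8.79e-05, for PD0325901 minus PI103 and -0.60 ± 0.093, SE, adjusted p = 1.15e-05, for oxozeaenol minus PI103).

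RRN3, the factor (TIF-IA) that makes RNA polymerase I competent to start, was counted at 117, 109, 121 and 111 CPM in the control libraries, 62.1, 60.9, 63.6 and 52.6 with PI103 and 64.7, 60.05, 66.9 and 62.9 with PD0325901. RRN3 levels were 71.0, 77.1, 70.3 and 54.9 CPM with oxozeaenol, 63.1, 68.4, 60.9 and 59.9 with PI103 and oxozeaenol, and 52.7, 48.5, 56.7 and 55.2 with PI103 and PD0325901. RRN3 was below control in all treated libraries, and the combination with PD0325901 was also below PD0325901 alone in every library. The differences from control were -0.94, -0.85, -0.75, -0.86 and -1.10, all called, the one with PI103 being -0.94 ± 0.088 (SE, adjusted p = 2.55e-09). TAF1D, a subunit of the promoter factor SL1, was counted at 66.8, 85.6, 73.0 and 74.1 CPM in the control libraries, 46.1, 42.1, 46.3 and 48.8 with PI103 and 37.4, 33.7, 40.3 and 41.3 with PD0325901. TAF1D levels were 44.5, 48.6, 53.3 and 63.6 CPM with oxozeaenol, 41.9, 48.9, 45.1 and 60.4 with PI103 and oxozeaenol, and 36.2, 36.7, 44.4 and 47.9 with PI103 and PD0325901. Its lowest group mean was with PD0325901 alone, and control was above all treated libraries. TAF1D differed by -0.97 ± 0.12 (SE, adjusted p = 1.22e-07) with PD0325901 and -0.86 ± 0.12 (SE, adjusted p = 5.67e-07) with PI103 and PD0325901. Small nucleolar RNA genes lie inside TAF1D on the same strand and cover 11.2% of its exon length, so its counts are less certain.

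The box C/D snoRNP genes split by gene. FBL is the methyltransferase of the particle, and NOP56 and NOP58 are its paired scaffold proteins. FBL, the methyltransferase fibrillarin, was counted at 339, 284, 325 and 289 CPM in the control libraries, 338, 352, 319.5 and 286 with PI103 and 224, 171, 244 and 208 with PD0325901. FBL levels were 297, 277, 297 and 194 CPM with oxozeaenol, 318, 339.8, 301 and 249.3 with PI103 and oxozeaenol, and 215, 142, 208 and 186 with PI103 and PD0325901. The PI103 libraries overlapped control, and all PD0325901 libraries, alone or combined, lay below it. FBL differed by -0.55 ± 0.14 (SE, adjusted p = 0.00124) with PD0325901 and -0.72 ± 0.14 (SE, adjusted p = 5.63e-05) with PI103 and PD0325901, but by 0.07 ± 0.14 (SE, adjusted p = 0.707) with PI103, -0.22 ± 0.14 (SE, adjusted p = 0.19) with oxozeaenol and -0.04 ± 0.14 (SE, adjusted p = 0.845) with PI103 and oxozeaenol. The difference between PD0325901 and PI103 was itself called, at -0.61 ± 0.14 (SE, adjusted p = 0.000652).

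NOP56, the scaffold partner of NOP58, was counted at 621, 566, 559.5 and 619 CPM in the control libraries, 370.4, 376, 347 and 375 with PI103 and 359.9, 229, 382 and 377 with PD0325901. NOP56 levels were 506, 504, 568 and 479.9 CPM with oxozeaenol, 429.6, 469.9, 441 and 463 with PI103 and oxozeaenol, and 258, 185, 282 and 292 with PI103 and PD0325901. Oxozeaenol libraries overlapped control, and the other treated groups were below it. NOP56 differed by -0.69 ± 0.13 (SE, adjusted p = 7.18e-05) with PI103, -0.81 ± 0.13 (SE, adjusted p = 6.28e-06) with PD0325901, -0.20 ± 0.13 (SE, adjusted p = 0.194) with oxozeaenol and -1.22 ± 0.13 (SE, adjusted p = 8.33e-09) with PI103 and PD0325901. NOP56 was higher with oxozeaenol than with PI103 (0.49 ± 0.13, SE, adjusted p = 0.0033). Small nucleolar and micro RNA genes on its strand cover 8.7% of its exon length. NOP58 fell in all 5 treatments, with differences of -0.72, -0.94, -0.43, -0.62 and -1.16.

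The 4 box H/ACA genes, which encode the pseudouridine synthase particle also found in telomerase, did not move together. With PI103, oxozeaenol or both, 2 of 4 were lower, with PD0325901 3, and with PI103 and PD0325901 all 4. The share of all tested genes called lower was 25.2% to 32.6%, and 4 genes are few to set against it. DKC1, dyskerin, the pseudouridine synthase, was counted at 279.8, 250.5, 250.2 and 256 CPM in the control libraries, 164, 173, 156 and 139 with PI103 and 219, 251.1, 235 and 205 with PD0325901. DKC1 levels were 213, 213, 206 and 149 CPM with oxozeaenol, 159, 191, 173 and 149 with PI103 and oxozeaenol, and 137, 151, 149.7 and 138 with PI103 and PD0325901. DKC1 was below control in every group except PD0325901, whose libraries overlapped it. The differences from control were -0.71 ± 0.10 (SE, adjusted p = 2.19e-06) with PI103, -0.19 ± 0.10 (SE, adjusted p = 0.116) with PD0325901 and -0.85 ± 0.10 (SE, adjusted p = 7.28e-08) with both. With the replicate number as a block the PD0325901 difference was called, at -0.20 (adjusted p = 0.0349). DKC1 was the only member called higher with PD0325901 than with PI103, by 0.53 ± 0.10 (SE, adjusted p = 0.000149), and every PD0325901 library was above every PI103 library.

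GAR1, a subunit at the catalytic side of the particle, was counted at 61.1, 50.9, 56.6 and 46.0 CPM in the control libraries, 40.5, 37.2, 37.6 and 34.6 with PI103 and 27.4, 21.5, 26.0 and 23.5 with PD0325901. GAR1 levels were 32.3, 26.2, 30.6 and 22.0 CPM with oxozeaenol, 29.4, 32.1, 27.5 and 24.2 with PI103 and oxozeaenol, and 27.4, 18.2, 25.4 and 22.0 with PI103 and PD0325901. GAR1 fell in every treatment and less with PI103 than with the other agents. The difference was -0.52 ± 0.12 (SE, adjusted p = 0.00107) with PI103 and -1.12 ± 0.13 (SE, adjusted p = 2.98e-08) with PD0325901, and PD0325901 was below PI103 with a difference of -0.61 ± 0.12 (SE, adjusted p = 0.000296). DKC1 and GAR1, whose products sit in the same particle, were called in opposite directions between PD0325901 and PI103. NOP10, the smallest subunit, was counted at 100.2, 123, 90.4 and 126 CPM in the control libraries, 90.9, 93.8, 84.5 and 106 with PI103 and 77.5, 61.4, 99.4 and 107 with PD0325901. NOP10 levels were 98.2, 118, 140.0 and 128 CPM with oxozeaenol, 92.3, 91.1, 97.2 and 106 with PI103 and oxozeaenol, and 67.5, 72.2, 85.2 and 87.3 with PI103 and PD0325901. Control overlapped all groups but the combination with PD0325901. NOP10 was lower with PI103 and PD0325901 (-0.49 ± 0.14, SE, adjusted p = 0.00356) and with PD0325901 (-0.35 ± 0.14, SE, adjusted p = 0.037), but the second call was lost in 7 of the alternatives run. Among these were leaving out PD0325901 replicate 1 (-0.27, adjusted p = 0.121), PD0325901 replicate 2 (-0.19, adjusted p = 0.212), control replicate 2 (-0.29, adjusted p = 0.108) or control replicate 4 (-0.28, adjusted p = 0.123). NHP2, called lower in the same 2 treatments as NOP10 and FBL, differed by -0.31, -0.42, -0.23, -0.26 and -0.78, and 27.4% of its exon length lies opposite RMND5B.

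The abundant nucleolar proteins fell with PD0325901, oxozeaenol and both combinations (4 of 4 each) and 3 of 4 fell with PI103. NCL, nucleolin, an RNA-binding protein that organises the nucleolus, was counted at 1214, 994, 1213 and 946 CPM in the control libraries, 919, 972, 900.4 and 891 with PI103 and 682, 582, 661 and 600.5 with PD0325901. NCL levels were 994, 791, 875 and 724 CPM with oxozeaenol, 849, 952, 860.4 and 808 with PI103 and oxozeaenol, and 702, 475, 686 and 608 with PI103 and PD0325901. PD0325901 libraries, alone or combined, lay below all control and all PI103 libraries. The difference with PI103 was -0.25 ± 0.11 (SE, adjusted p = 0.0742) and with PD0325901 -0.79 ± 0.12 (SE, adjusted p = 1.86e-06), and PD0325901 was below PI103 with a difference of -0.54 ± 0.12 (SE, adjusted p = 0.000369). The PI103 difference was called with the replicate number as a block (-0.24, adjusted p = 0.0381) and without control replicate 4 (-0.31, adjusted p = 0.0372). The NCL fall with PI103 and oxozeaenol (-0.33 ± 0.11, SE, adjusted p = 0.0159) lost its call without control replicate 1 (-0.28, adjusted p = 0.0645), control replicate 3 (-0.27, adjusted p = 0.0641) or combination replicate 4 (-0.30, adjusted p = 0.0517).

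GNL3, nucleostemin, a GTPase of 60S assembly and of proliferating cells, was counted at 311, 305, 279 and 298 CPM in the control libraries, 191, 194, 179 and 170.4 with PI103 and 156, 110.5, 182 and 171 with PD0325901. GNL3 levels were 218, 234, 256 and 195 CPM with oxozeaenol, 200.3, 219, 214 and 205 with PI103 and oxozeaenol, and 129, 114, 148 and 141 with PI103 and PD0325901. All treated libraries were below control. GNL3 differed by -0.70 ± 0.11 (SE, adjusted p = 1.07e-05) with PI103, -0.94 ± 0.11 (SE, adjusted p = 9.13e-08) with PD0325901 and -1.17 ± 0.11 (SE, adjusted p = 1.78e-09) with both. NOLC1, a chaperone of snoRNPs, differed by -0.57, -0.94, -0.41, -0.38 and -1.11, all called. NPM1, the nucleolar chaperone nucleophosmin, had the highest CPM of the 48, with a mean of 2582 ± 87.6 CPM in control and 1288 ± 244 with PI103 and PD0325901 (SD, n = 4), and differed by -0.51, -0.76, -0.36, -0.57 and -1.003. GENCODE 29 names 45 pseudogenes of NPM1, so reads without a unique position may be missing from its count.

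The small-subunit processome, which folds the 5′ part of the transcript and makes the first cuts, fell nearly as a whole. Of its 12 genes 11 were lower with PI103 and all 12 in each other treatment, against 25.2% to 32.6% of all tested genes. The medians of the 12 genes were -0.50, -0.97, -0.62, -0.77 and -1.24. UTP20, a large scaffold protein of the processome, was counted at 109.5, 88.9, 116 and 93.6 CPM in the control libraries, 80.7, 76.4, 79.4 and 67.1 with PI103 and 58.0, 37.0, 45.0 and 44.8 with PD0325901. UTP20 levels were 84.7, 62.7, 69.4 and 54.9 CPM with oxozeaenol, 67.6, 73.8, 67.7 and 56.3 with PI103 and oxozeaenol, and 50.1, 29.1, 48.4 and 43.8 with PI103 and PD0325901. All treated libraries were below control, and PD0325901 libraries were below PI103 libraries. UTP20 differed by -0.43 ± 0.15 (SE, adjusted p = 0.0209) with PI103 and -1.14 ± 0.15 (SE, adjusted p = 7.14e-07) with PD0325901, and the difference between the agents was -0.72 ± 0.15 (SE, adjusted p = 0.000442). Its PI103 call was lost without control replicate 1 (-0.39, adjusted p = 0.0545), control replicate 3 (-0.36, adjusted p = 0.0665) or PI103 replicate 4 (-0.37, adjusted p = 0.0673).

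RRP9, a protein of the U3 snoRNP, was counted at 31.5, 29.2, 28.7 and 32.2 CPM in the control libraries, 22.6, 25.0, 19.5 and 21.4 with PI103 and 17.3, 9.65, 18.4 and 16.4 with PD0325901. RRP9 levels were 23.9, 20.5, 22.1 and 16.2 CPM with oxozeaenol, 17.7, 20.3, 17.2 and 16.1 with PI103 and oxozeaenol, and 13.4, 8.08, 12.9 and 11.2 with PI103 and PD0325901. Replicate 2 was the lowest library of PD0325901 and of PI103 with PD0325901, and all treated groups were below control. RRP9 differed by -0.46 ± 0.16 (SE, adjusted p = 0.0176) with PI103, -0.97 ± 0.16 (SE, adjusted p = 1.15e-05) with PD0325901 and -1.41 ± 0.16 (SE, adjusted p = 3.93e-08) with both. The PI103 call was lost without PI103 replicate 3 (-0.40, adjusted p = 0.0585). IMP4, a partner of the U3 snoRNP, was counted at 88.6, 81.2, 72.9 and 92.0 CPM in the control libraries, 47.4, 54.1, 44.8 and 46.4 with PI103 and 49.6, 28.98, 47.7 and 44.7 with PD0325901. IMP4 levels were 57.7, 62.4, 63.9 and 40.8 CPM with oxozeaenol, 47.1, 50.8, 47.8 and 44.0 with PI103 and oxozeaenol, and 30.3, 23.4, 33.2 and 32.3 with PI103 and PD0325901. IMP4 had the largest fall of the 12 with PI103 and PD0325901, -1.49 ± 0.14 (SE, adjusted p = 2.52e-09), against -0.80 ± 0.14 (SE, adjusted p = 4.83e-05) with PI103 and -0.97 ± 0.14 (SE, adjusted p = 2.68e-06) with PD0325901. That group was below PI103 in every library.

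MPHOSPH10, which binds the same U3 particle as IMP4, was counted at 42.4, 39.1, 45.3 and 37.2 CPM in the control libraries, 36.7, 36.4, 37.5 and 34.5 with PI103 and 28.6, 29.7, 30.2 and 27.6 with PD0325901. MPHOSPH10 levels were 33.4, 28.5, 31.4 and 27.4 CPM with oxozeaenol, 29.2, 35.8, 30.3 and 29.5 with PI103 and oxozeaenol, and 30.0, 25.6, 30.6 and 28.0 with PI103 and PD0325901. MPHOSPH10 moved least of the 12 with PI103, with PD0325901 and with both, and the PI103 libraries overlapped control. It differed by -0.18 ± 0.084 (SE, adjusted p = 0.0774) with PI103 and -0.50 ± 0.085 (SE, adjusted p = 1.58e-05) with PD0325901, and the PI103 difference was called without control replicate 4 (-0.23, adjusted p = 0.0415). Among the other genes of the set, UTP15, WDR43, WDR75 and HEATR1 act in the t-UTP group that joins the transcript first, and their differences with PI103 and PD0325901 were -1.48, -1.39, -1.15 and -0.92. WDR3 and NOP14 were at -1.23 and -0.91, the helicase DDX10 at -1.41 and the RNA acetyltransferase NAT10 at -1.17, all called lower. HEATR1, WDR3 and NOP14 overlap genes on the opposite strand over 23.2%, 17.1% and 17.1% of their exon length, as do NOB1, NOP16, POLR1C and PNO1 over 10.4% to 20.2% of theirs, and whether the counting used strand is not given in the sources used here.

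The 40S maturation genes, whose products export and finish the small subunit in the cytoplasm, had the lowest mean of the 7 roles in every treatment. The mean over the 6 genes, on the log2 scale against control, was -1.01 ± 0.074 (PI103), -1.22 ± 0.30 (PD0325901) and -0.82 ± 0.19 (oxozeaenol) for the single agents (SD, n = 4). It was -1.10 ± 0.12 for the oxozeaenol combination and -1.62 ± 0.225 for the PD0325901 combination (SD, n = 4). RRP12 and RIOK1 had the most negative differences of the 6 with PI103 and PD0325901. RRP12 weighs on each of these means, and the rank of the role without RRP12 was not tested. RRP12, an export factor of the pre-ribosome, was counted at 88.8, 76.7, 69.6 and 84.2 CPM in the control libraries, 26.7, 29.2, 25.3 and 24.3 with PI103 and 25.5, 13.2, 20.8 and 17.7 with PD0325901. RRP12 levels were 29.5, 22.4, 22.8 and 16.99 CPM with oxozeaenol, 17.7, 23.2, 19.1 and 16.8 with PI103 and oxozeaenol, and 15.1, 8.25, 15.1 and 11.2 with PI103 and PD0325901. RRP12 was the member that fell most in every treatment, and all treated libraries were below control. The differences were -1.60 ± 0.19 (SE, adjusted p = 1.7e-07) with PI103, -2.05 ± 0.19 (SE, adjusted p = 2.8e-09) with PD0325901 and -1.80 ± 0.19 (SE, adjusted p = 3.36e-08) with oxozeaenol. They were -2.06 ± 0.19 (SE, adjusted p = 3.28e-09) with PI103 and oxozeaenol and -2.68 ± 0.19 (SE, adjusted p = 3.04e-11) with PI103 and PD0325901. RRP12 lies on chromosome 10 (chr10:97356358-97426076, GRCh38, GENCODE 29).

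RIOK1, a kinase that releases late factors from the 40S subunit, differed by -1.14, -1.52, -1.13, -1.34 and -1.92, from a control range of 87.7 to 101 CPM. PNO1, which guides the last cut at the 3′ end of 18S ribosomal RNA together with NOB1, was counted at 99.7, 126, 92.7 and 131 CPM in the control libraries, 52.7, 48.5, 47.7 and 60.9 with PI103 and 61.6, 39.1, 61.9 and 78.1 with PD0325901. PNO1 levels were 78.4, 89.4, 123 and 91.8 CPM with oxozeaenol, 54.0, 66.8, 60.2 and 68.2 with PI103 and oxozeaenol, and 37.6, 38.1, 53.3 and 56.0 with PI103 and PD0325901. PNO1 was low wherever PI103 was present and with PD0325901, and the oxozeaenol libraries overlapped control. The difference was -1.10 ± 0.18 (SE, adjusted p = 1.47e-05) with PI103 and -0.23 ± 0.17 (SE, adjusted p = 0.279) with oxozeaenol, and oxozeaenol was above PI103 by 0.87 ± 0.17 (SE, adjusted p = 0.000344). LTV1, an export adaptor of the 40S subunit, was counted at 91.2, 85.2, 94.0 and 87.0 CPM in the control libraries, 52.9, 56.1, 55.9 and 51.3 with PI103 and 51.2, 38.0, 55.1 and 51.2 with PD0325901. LTV1 levels were 65.7, 67.1, 74.4 and 55.2 CPM with oxozeaenol, 49.1, 61.6, 48.6 and 51.2 with PI103 and oxozeaenol, and 37.4, 31.1, 42.9 and 41.4 with PI103 and PD0325901. All treated libraries of LTV1 were below control, with differences of -0.73 ± 0.11 (SE, adjusted p = 4.83e-06) with PI103 and -1.23 ± 0.11 (SE, adjusted p = 5.17e-10) with PI103 and PD0325901. Other annotated genes, for which no counts were given, overlap 34.8% of the exon length of LTV1 on its own strand. NOB1, the nuclease of the last cut, differed by -0.75, -0.94, -0.76, -0.89 and -1.24, and BYSL, a 40S assembly factor, by -0.75, -0.90, -0.50, -0.73 and -1.27, all called.

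The 60S assembly genes fell with PI103, PD0325901 and their combination for 12 of 12 genes each, with oxozeaenol in 10 and with PI103 and oxozeaenol in 11, with medians of -0.66, -1.03, -0.54, -0.74 and -1.51. DDX21, an RNA helicase of the nucleolus, was counted at 705, 639.8, 714 and 663 CPM in the control libraries, 279, 280.0, 274 and 225 with PI103 and 275, 170.1, 217 and 216 with PD0325901. DDX21 levels were 364, 337, 326 and 225 CPM with oxozeaenol, 250.9, 324, 271 and 216 with PI103 and oxozeaenol, and 173, 116, 178 and 153 with PI103 and PD0325901. DDX21 fell most of the 12 and no treated library reached the control range. The differences were -1.36 ± 0.15 (SE, adjusted p = 6.87e-08) with PI103, -1.63 ± 0.15 (SE, adjusted p = 2.54e-09) with PD0325901, -1.12 ± 0.15 (SE, adjusted p = 1.32e-06) with oxozeaenol and -2.13 ± 0.16 (SE, adjusted p = 1.98e-11) with PI103 and PD0325901. DDX21 lies on chromosome 10 (chr10:68956128-68985073, GRCh38, GENCODE 29).

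MRTO4, a stalk assembly factor of the 60S subunit, was counted at 176, 165, 165 and 185 CPM in the control libraries, 95.6, 107, 94.2 and 90.1 with PI103 and 81.9, 41.3, 90.8 and 76.4 with PD0325901. MRTO4 levels were 121, 125, 129 and 86.2 CPM with oxozeaenol, 99.0, 114, 101 and 87.5 with PI103 and oxozeaenol, and 54.6, 38.9, 62.7 and 53.6 with PI103 and PD0325901. The 2 replicate 2 libraries of the PD0325901 groups were the lowest. MRTO4 differed by -0.84 ± 0.17 (SE, adjusted p = 0.000238) with PI103, -1.25 ± 0.17 (SE, adjusted p = 1.22e-06) with PD0325901 and -1.72 ± 0.17 (SE, adjusted p = 7.46e-09) with both. BRIX1, a factor of early 60S particles, was counted at 100.2, 111, 105 and 107 CPM in the control libraries, 81.0, 73.0, 78.7 and 85.7 with PI103 and 68.0, 48.1, 81.0 and 84.4 with PD0325901. BRIX1 levels were 105, 117, 138 and 107 CPM with oxozeaenol, 99.0, 106, 102 and 100.1 with PI103 and oxozeaenol, and 58.0, 45.5, 70.7 and 73.4 with PI103 and PD0325901. BRIX1 moved least of the 12 in all treatments but PI103, and control overlapped both groups with oxozeaenol. It differed by -0.41 ± 0.14 (SE, adjusted p = 0.0141) with PI103, -0.59 ± 0.14 (SE, adjusted p = 0.000648) with PD0325901, 0.14 ± 0.14 (SE, adjusted p = 0.393) with oxozeaenol and -0.06 ± 0.14 (SE, adjusted p = 0.744) with PI103 and oxozeaenol. Oxozeaenol was above PI103 by 0.55 ± 0.14 (SE, adjusted p = 0.00203) and PD0325901 was below oxozeaenol with a difference of -0.73 ± 0.14 (SE, adjusted p = 0.000361).

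BOP1, PES1 and WDR12, which form the PeBoW complex, differed with PI103 and PD0325901 by -1.70, -1.14 and -1.02. The ribosomal RNA methyltransferase NOP2 was at -1.55, NOP16 at -1.59, RRS1 at -1.46, RRP1B at -0.79, the helicase DDX18 at -0.93 and PPAN at -1.76. RRS1 was the other gene not called with oxozeaenol (-0.38, adjusted p = 0.063). PPAN shares 59.8% of its exon length with P2RY11 and their read-through gene, and NOP2 shares 54.4% with another annotated gene on its strand, so both counts are uncertain. Counts were given for P2RY11 and the read-through gene but not for the gene that overlaps NOP2.

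**Figure D3:**
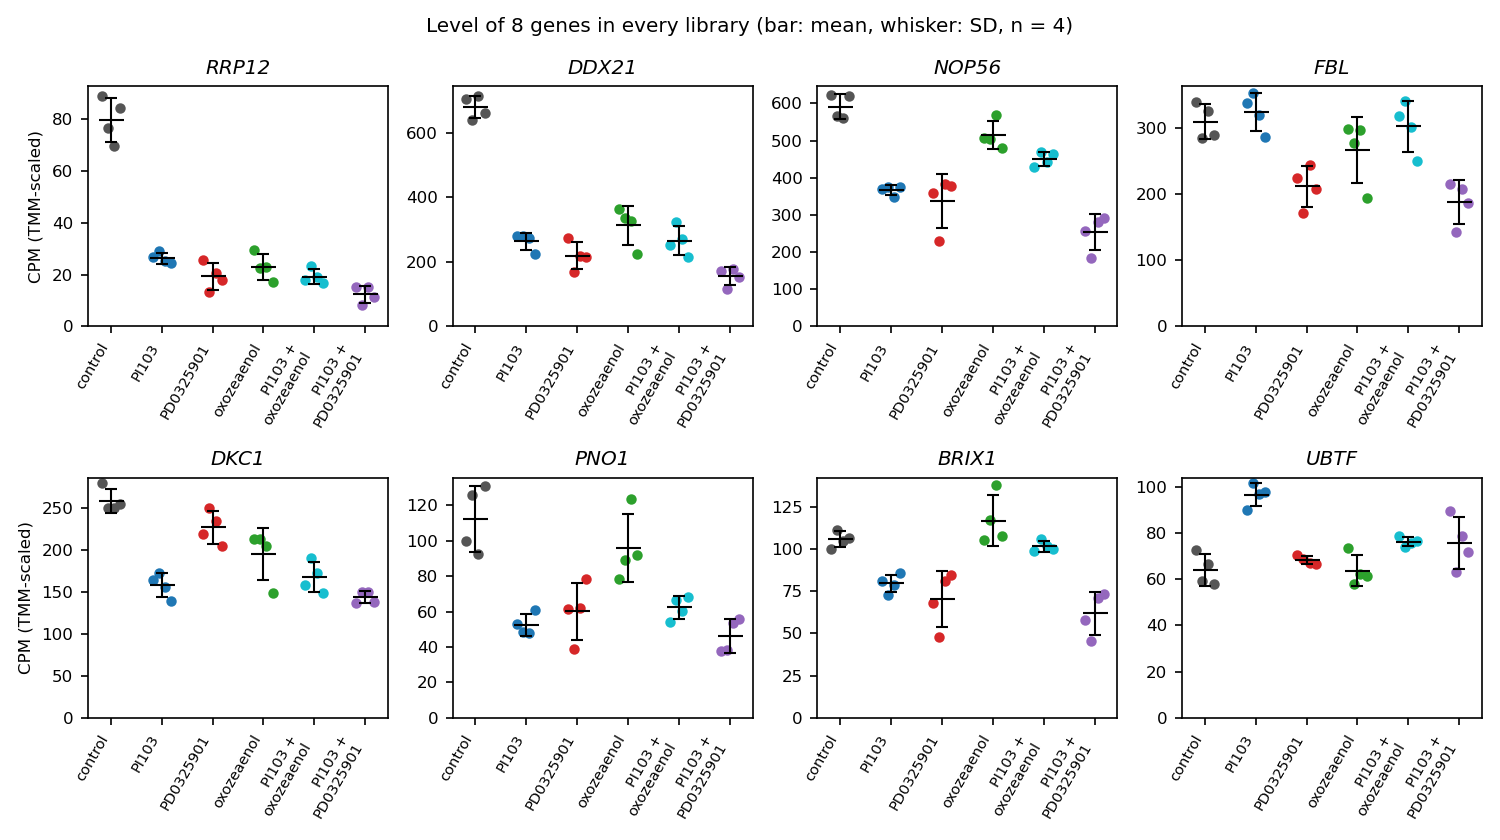
CPM of 8 genes in each of the 24 libraries, with the mean and SD of each group (n = 4) and axes that start at 0. RRP12 and DDX21 are low in all treatments, and FBL is low with PD0325901 alone or combined. DKC1 is below control in every treatment but PD0325901 alone. PNO1 and BRIX1 with oxozeaenol overlap control, and UBTF is highest with PI103.

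The single agents were then compared with each other, at 1 concentration each. PD0325901 was below PI103 for 21 members and above it for 1, DKC1, against 21.7% and 22.9% of all tested genes, with a member median of -0.28. In 20 members every PD0325901 library was below every PI103 library (19.6% of all tested genes), and 8 were called with a change of at least 0.5 (24.8% of all tested genes). The 3 largest differences in the lower direction were UTP20 (-0.72), FBL (-0.61) and GAR1 (-0.61). The members with the most positive differences were DKC1, PNO1 (0.20 ± 0.17, SE, adjusted p = 0.374) and RRN3 (0.09 ± 0.088, SE, adjusted p = 0.431), of which PNO1 and RRN3 missed the threshold. Without PD0325901 replicate 2 the calls dropped from 22 to 14, of which 12 were lower and 2 higher. Without both low replicate 2 libraries there were 19 calls. Shares of all tested genes with libraries left out are not given here.

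PD0325901 was below oxozeaenol for 27 members and above it for none, against 13.4% and 15.1% of all tested genes, with a median of -0.40. All libraries were below in 13 members (9.45% of all tested genes), and 11 were called with a change of at least 0.5 (13.7%). BRIX1 (-0.73), PNO1 (-0.67 ± 0.17, SE, adjusted p = 0.00648) and MRTO4 (-0.67 ± 0.17, SE, adjusted p = 0.00559) differed most. At the other end were DKC1 (0.22 ± 0.10, SE, adjusted p = 0.104), UBTF (0.10) and MPHOSPH10 (-0.05), none of them called. The count of 27 became 14 without PD0325901 replicate 2, 17 without oxozeaenol replicate 1 and 35 without oxozeaenol replicate 4. It became 20 without both low replicate 2 libraries, and shares of all tested genes in these fits are not given here.

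Oxozeaenol was above PI103 for 11 members and below it for 4, against 22.5% and 20.6% of all tested genes, so the share of members above was near that of all genes and the share below was smaller. All oxozeaenol libraries were below PI103 in 3 members (19.1% of all tested genes), and 3 were called with a change of at least 0.5 (22.6%). The 11 were POLR1C, NOP56, NOP58, DKC1, NOP10, GNL3, UTP15, PNO1, LTV1, BRIX1 and PPAN, and the 4 were UBTF, GAR1, HEATR1 and MPHOSPH10. The 15 calls became 6 without oxozeaenol replicate 2, 7 without oxozeaenol replicate 3 and 9 without PI103 replicate 3. For these fits, shares of all tested genes are not given here.

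The combination of PI103 and PD0325901, each at 50%, was below PI103 alone for 43 members and above it for none, against 19.9% and 18.8% of all tested genes, with a median of -0.54. In 42 members every combination library was below every PI103 library, against 20.1% of all tested genes, and 28 were called with a change of at least 0.5 (20.2%). RRP12 (-1.09 ± 0.19, SE, adjusted p = 8.06e-05), RRP9 (-0.96 ± 0.16, SE, adjusted p = 5.27e-05) and MRTO4 (-0.88 ± 0.17, SE, adjusted p = 0.000282) differed most. The 5 members without a call were RRN3, TAF1D, DKC1, NOP10 and PNO1. The intervals of the differences (95%) were -0.34 to 0.01 for RRN3, -0.38 to 0.08 for TAF1D and -0.34 to 0.06 for DKC1.

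Against PD0325901 alone the combination was lower for 16 members and higher for none, against 10% and 8.06% of all tested genes, with a median of -0.31. DKC1 differed most, by -0.66 ± 0.10 (SE, adjusted p = 7.45e-05), followed by PPAN at -0.64 and RRP12 at -0.63 ± 0.19 (SE, adjusted p = 0.0209). This count changed with single libraries, and shares of all tested genes with libraries left out are not given for it here. It became 31 without PD0325901 replicate 2, 9 without replicate 1, 3 without replicate 3 and 7 without replicate 4 of PD0325901, 6 without replicate 2 of the combination, and 24 without both replicate 2 libraries. Only 4 members had every combination library below every PD0325901 library, against 8.36% of all tested genes, and 5 were called with a change of at least 0.5 (7.66%).

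Lower in the combination than in both of its agents were 14 members, against 2.39% of all tested genes. They were POLR1C, NOP56, UTP15, WDR75 and IMP4, the 40S factors BYSL, LTV1, RIOK1 and RRP12, and the 60S factors PES1, WDR12, NOP2, DDX21 and PPAN. This count fell to 2 (1.15% of all tested genes) when PD0325901 replicate 3 was left out and rose to 28 (4.05%) when its replicate 2 was. It was 8 (1.54%) without replicate 1 and 6 (1.88%) without replicate 4 of PD0325901. It was 5 (1.19%) without replicate 2 of the combination, and 23 (2.45% of all tested genes) without both replicate 2 libraries.

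**Figure D4:**
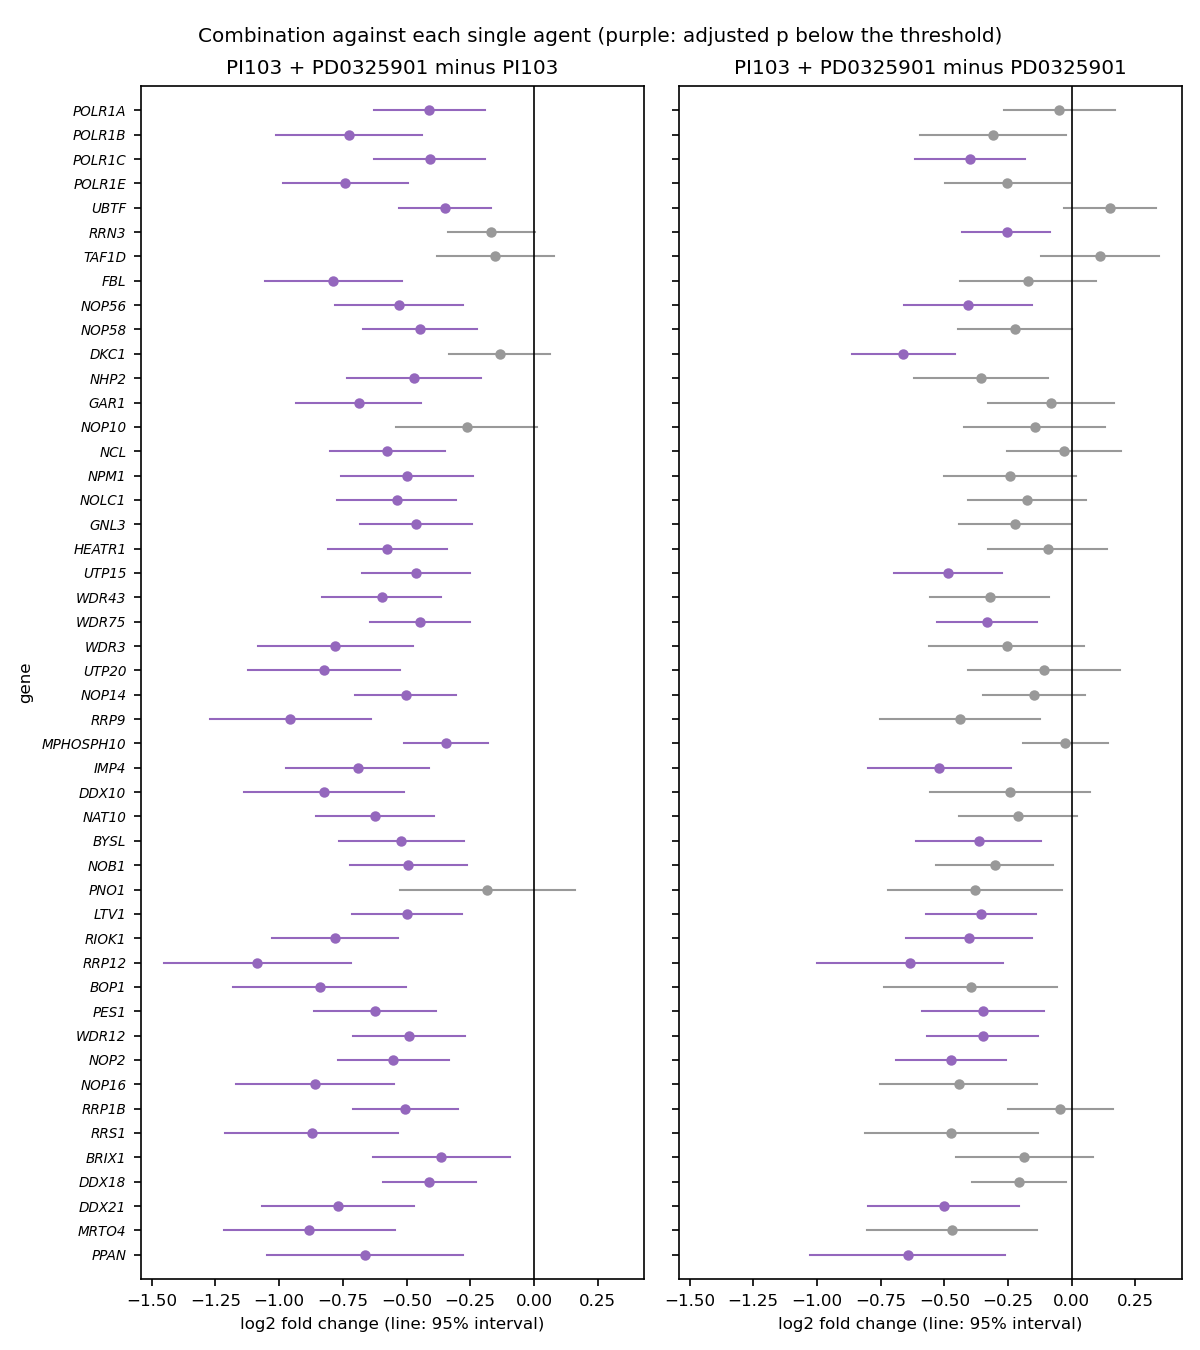
Log2 difference of PI103 with PD0325901 from PI103 alone (left) and from PD0325901 alone (right) for the 48 genes, with 95% intervals, purple where called. On the left 43 genes are called lower, and on the right 16 are, with DKC1 farthest from 0 on the right.

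In the main fit, few members were called between the combination of PI103 and oxozeaenol and either agent. Against PI103 alone 2 members were lower, UBTF (-0.34 ± 0.092, SE, adjusted p = 0.0103) and GAR1 (-0.40 ± 0.12, SE, adjusted p = 0.0242), and none higher, against 8.92% and 9.39% of all tested genes. Against oxozeaenol alone 4 were lower, POLR1C (-0.34), UTP15 (-0.36), PNO1 (-0.62 ± 0.17, SE, adjusted p = 0.0182) and NOP2 (-0.33), and none higher, against 7.28% and 7.59%. Every library lay below in 5 members in either comparison (14.8% and 8.98% of all tested genes), and 0 and 1 members were called with a change of at least 0.5 (9.26% and 6.43%). As a share of the 48 members the first count is under that of all genes and the second near it, and both change with single libraries. The first was 1 without PI103 replicate 1 or 3 or without combination replicate 3 or 4. The second was 0 without combination replicate 1 or 3 or oxozeaenol replicate 3, 1 without oxozeaenol replicate 2, 2 without combination replicate 4 and 7 without oxozeaenol replicate 4. With the replicate number as a block, 7 and 8 members were called, so these counts also depend on the fit. The shares of all tested genes under the block are not given here.

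Further genes of the same pathway, from lists without the members that were drawn up with results of these data known, were counted beside them. Of 67 other RNA polymerase I and subunit assembly genes, 53 were lower and 1 higher with PI103, 58 and none with PD0325901, 43 and 1 with oxozeaenol, 56 and 1 in the oxozeaenol combination, and 61 and 1 in the PD0325901 combination. The shares of all tested genes called lower were 25.2%, 29.9%, 26.1%, 27.9% and 32.6%, in the order of treatments kept above, and are the background of each count of this and the next paragraph. Medians of the 67 genes were -0.49, -0.65, -0.39, -0.54 and -0.84. Of the 8 other RNA polymerase I genes, 5, 6, 2, 5 and 6 were lower, the 2 with oxozeaenol (25%) being near the share of all genes. TAF1A, an SL1 subunit, differed by -0.96 with PI103, -1.48 ± 0.15 with PD0325901 (SE, adjusted p = 5.98e-09) and -1.52 with both. TAF1C, another SL1 subunit, was higher with PI103 and oxozeaenol (0.29 ± 0.11, SE, adjusted p = 0.0345) and with PI103 and PD0325901 (0.26 ± 0.11, SE, adjusted p = 0.0469). Among 31 further 40S genes 26, 27, 18, 26 and 28 were lower, and UTP4 fell by 1.61 with PI103 and PD0325901. Among 28 further 60S genes 22, 25, 23, 25 and 27 were lower. RSL24D1 fell by 1.67 with PI103, and MAK16 and GTPBP4 differed by -1.90 and -1.75 with PI103 and PD0325901.

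The other polymerases and the RNA exosome, which trims ribosomal RNA, were counted in the same way. Of 7 RNA polymerase II subunits, 3, 4, 2, 3 and 5 were lower and none higher (42.9%, 57.1%, 28.6%, 42.9% and 71.4% lower), with medians of -0.23, -0.30, -0.23, -0.29 and -0.54. Of 11 RNA polymerase III genes, 7, 7, 5, 5 and 8 were lower and 2, 1, 1, 1 and 1 higher. POLR3G, a subunit linked to proliferating cells, differed by -1.64 with PI103, -1.60 with PD0325901 and -2.21 with both. BRF1, a factor that recruits RNA polymerase III, was higher in all 5 treatments, by 0.32, 0.42, 0.40, 0.49 and 0.43, and GTF3C2, of an RNA polymerase III factor, was higher with PI103 (0.23, adjusted p = 0.0332). Of 5 subunits shared by the polymerases, POLR2L was higher in all 5, by 0.52, 0.57, 0.94, 0.67 and 0.45. POLR2H was also higher with oxozeaenol (0.28, adjusted p = 0.0497), while POLR2E (-0.48), POLR2F (-0.49) and POLR2H (-0.32) were lower with PI103 and PD0325901, and POLR2E was lower with PI103 and oxozeaenol (-0.30). Of 11 exosome genes, 4, 8, 4, 4 and 10 were lower (36.4%, 72.7%, 36.4%, 36.4% and 90.9%), with EXOSC8 at -1.61 and EXOSC5 at -1.34 for PI103 and PD0325901.

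MYC, whose binding letters are counted above, was at 293 ± 34.3 CPM in control, 144 ± 10.7 with PI103, 89.5 ± 15.6 with PD0325901 and 119 ± 14.2 with oxozeaenol (SD, n = 4). In the combinations of PI103 it was at 156 ± 8.66 CPM (with oxozeaenol) and 112 ± 12.8 CPM (with PD0325901; SD, n = 4). Its differences from control were -1.03, -1.71, -1.30, -0.91 and -1.39, all called. MYC was higher in the combination than with PD0325901 alone (0.33 ± 0.12, SE, adjusted p = 0.049), while 16 members were lower in the same comparison and none higher. That MYC call lies close to the threshold of 0.05 and was not tried in the alternatives. The count of 16 ranged from 3 to 31 when single libraries were left out. MYC was also higher with PI103 and oxozeaenol than with oxozeaenol alone (0.39 ± 0.11, SE, adjusted p = 0.0226). The order of the MYC means is therefore not the order of the members' means, and any part of MYC in the members' falls was not tested. CDKN1A and MDM2, targets of p53 that are known to rise when the nucleolus is damaged, were not called higher in any treatment. Whether the nucleolus was damaged was not tested. CDKN1A was lower in all 5 treatments (-0.38, -0.45, -0.57, -0.84 and -0.87), and MDM2 was lower with PD0325901 (-0.53) and in the combinations (-0.40 with oxozeaenol and -0.61 with PD0325901) and not called with PI103 (-0.18, adjusted p = 0.147) or oxozeaenol (-0.22, adjusted p = 0.0643).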

How the data were processed

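Total RNA of AGS cells (0.8 µg per library) was prepared with a stranded mRNA ligation kit, per the labels' protocols. The authors deposited a table of whole-number read counts per gene symbol, with GRCh38 as build per the submitters' processing notes; the aligner, counter, strand setting and annotation are not given in the sources used here. Of 23368 genes, 3199 had no count. Rows tallying reads without a gene (no feature 4.24% to 8.57%, ambiguous 1.57% to 2.01%, not unique 4.64% to 6.06%) were left out. Groups were read from the sample titles.

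Counts were scaled by TMM and tested with edgeR 4.0.16 (R 4.3.3) quasi-likelihood F tests over all 24 libraries with group as the only term, after filterByExpr, with Benjamini-Hochberg adjustment. Values in every library are given for the lowest and highest log2 fold change of each role in PI103 with PD0325901 against control, the 3 lowest and 3 highest in PD0325901 against PI103, PI103 with PD0325901 against PI103 and PD0325901 against oxozeaenol, and members called higher in any treatment. Other lists name at most the 2 largest falls and 2 largest rises. The scripts were tested on simulated data. Alternatives were DESeq2 1.42.0, other scalings and filters, a minimum change, only the groups compared, a replicate block and leaving out each library. The labels give the replicate number as a batch, so same-numbered samples are paired by design. Deviations from group means correlated at 0.12 on average within a number (60 comparisons) and at -0.039 between numbers (180). Members and lists were chosen with earlier results of these data known. P-values measure the spread between replicates of 1 line.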

Additional observations from a re-analysis of the deposited data

Results flagged for a closer look

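The check covered the genes with values in every library and the mean over the members, each in every group. For 5 of these 132 combinations, 1 library lay farther from the other 3 than Dixon's critical value allows, and chance alone gives about 7. POLR1B was at 18.45 CPM in replicate 2 of PI103 with PD0325901, against 28.84 to 30.15 in the others. NOP56 was at 228.9 CPM in PD0325901 replicate 2, against 359.9 to 382.3. MPHOSPH10 was at 35.8 CPM in replicate 2 of PI103 with oxozeaenol, against 29.16 to 30.26. DDX21 was at 224.6 CPM in PI103 replicate 4, against 274.1 upward in the others. DKC1 was at 148.9 CPM in oxozeaenol replicate 4, against 205.6 to 213.3.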

How the results depend on the processing

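Counts of called members against control stayed within 1.5 times of the values given, except with a minimum change of 0.5, where oxozeaenol gave 25 in place of 39. That minimum gave 8 in place of 22 for PD0325901 against PI103, 3 in place of 15 for oxozeaenol against PI103 and 11 in place of 27 for PD0325901 against oxozeaenol. It gave 28 in place of 43 and 5 in place of 16 for PI103 with PD0325901 against PI103 and against PD0325901, 0 and 1 in place of 2 and 4 for PI103 with oxozeaenol against PI103 and oxozeaenol, 20 in place of 35 for members lower in all treatments and 4 in place of 14 for members lower than with both agents. With no filter on low counts, oxozeaenol against PI103 gave 9. Fitting only the groups compared gave 13 and 7 for PI103 with oxozeaenol against PI103 and oxozeaenol, and 3 for PI103 with PD0325901 against PD0325901. The shares of all tested genes in those fits are not given here. Except for the minimum change, which by construction calls fewer, the cause was not tested.

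With the replicate number as a block, PI103 with oxozeaenol gave 7 against PI103 and 8 against oxozeaenol, and no other count moved by over 1.5 times. The block also called DKC1 with PD0325901 and NCL with PI103, as given above.

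Leaving out each library in turn gave 38 to 44 calls for PI103, 44 to 46 for PD0325901, 36 to 39 for oxozeaenol, 42 to 44 for PI103 with oxozeaenol and 47 to 48 for PI103 with PD0325901. It gave 14 to 25 for PD0325901 against PI103, 6 to 18 for oxozeaenol against PI103 and 14 to 35 for PD0325901 against oxozeaenol. For PI103 with oxozeaenol the ranges were 1 to 3 against PI103 and 0 to 7 against oxozeaenol, and for PI103 with PD0325901 42 to 43 against PI103 and 3 to 31 against PD0325901. Shares of all tested genes for these ranges are not given here. Members lower in all treatments ranged from 30 to 37, against 12.1% to 13.6% of all tested genes. Those lower than with both agents ranged from 2 to 28, against 1.15% to 4.05%. Leaving out both replicate 2 libraries of the PD0325901 groups, chosen after seeing the data, gave 23 members lower than with both agents.

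Upper-quartile scaling moved the median log2 difference of all genes most for PI103 with PD0325901 against control, from 0.005 to 0.149, where 25.4% of tested genes were then lower out of 65.1% called and 47 members were lower and 1 higher. Lower genes were then 15.3% out of 38.1% called against PI103 and 7.23% out of 18% against PD0325901. Among single genes, 1483 alternative values kept their side of the threshold, 24 lost and 5 gained a call, and none changed direction while called.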
